A study of Caenorhabditis elegans with 51 samples.

Results

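The genes described here are those whose small RNAs were at least 2-fold higher with the Argonaute HRDE-1 than in the input, and at most 0.5-fold of the input with the Argonaute CSR-1. Small RNA was measured in Caenorhabditis elegans young adults. Values are RPKM, that is, reads scaled for the length of the gene model and for the size of the library, and each ratio was taken after adding 1 RPKM to both sides. A gene model entered when both input libraries reached 5 RPKM and when both thresholds were met in each of the 2 replicates. Of 20938 rows in the table, 7730 had enough input and 211 met the thresholds. A further step left out 18 of these by family or name, namely 11 F-box genes, 5 nuclear hormone receptor genes, 1 MATH gene and unc-119. The remaining 193 rows are called members below. Because all 6 libraries were used to choose the members, their levels and ratios are descriptions and no test was made of them.

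The HRDE-1 libraries (n = 2), the CSR-1 libraries (n = 2) and the input libraries (n = 2) came from 1 strain, CSS342. That strain carries the allele Cer3(red20), in which a fragment of oma-1 sits inside the retrotransposon Cer3, together with SF-HRDE-1 and c-myc-CSR-1, which are tagged forms of the proteins. Small RNA that came down with HRDE-1 or with CSR-1 (sRIP, small RNA immunoprecipitation) was set against input RNA. The series has 51 samples, and the 45 others were not analysed here. All 6 libraries share the insert and both tags, so neither the insert nor a tag was compared with its absence. The labels name no mock precipitation and no untagged strain, so RNA bound to the protein and RNA carried over in the wash cannot be told apart. They do not say whether the replicates were separate cultures, so the spread between libraries may be technical. The animals were whole adults, in which fewer cells of a type and less RNA per cell cannot be told apart.

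Argonaute proteins bind small RNAs and use them to find matching transcripts. In worms, RNA-dependent RNA polymerases copy target transcripts into antisense small RNAs called 22G RNAs, and different Argonautes carry different sets of them. HRDE-1 is a nuclear Argonaute of the germ line that carries silencing from parents to offspring and directs repressive chromatin to its targets. CSR-1 is known for binding 22G RNAs against genes that are expressed in the germ line, which it is thought to license rather than silence. The X chromosome is largely silent in much of the hermaphrodite germ line.

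Library totals deduced from the values were 4872549 and 3248065 reads for HRDE-1, 4992358 and 2991634 for CSR-1 and 2728020 and 2104162 for the input. The members took 2.88% and 2.80% of the reads on gene models in the HRDE-1 libraries, 0.314% and 0.294% in the CSR-1 libraries and 1.16% and 1.09% in the input libraries. A chi-square test on deduced reads compared the libraries of each pair. The HRDE-1 pair had a chi-square of 1.86 for each degree of freedom over 10972 rows, which is above sampling noise. The CSR-1 pair stood at 1.04 over 8600 rows, slightly above sampling noise (chi-square p = 0.0110), and the input pair at 0.965 over 9743 rows. Some genes have several models in the table, which can share reads. The rows are then not independent, and the p-value is approximate. In deduced reads the input libraries thus differed by no more than sampling noise. Deduced reads may be too low in some rows, which would lower the chi-square. The labels list 2 input libraries, and whether both came from 1 sample is not known. The number of members with their mean as a single input is therefore given among the alternatives.

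Over the 193 members, the HRDE-1 libraries ran from 13.2 to 281 RPKM with a median of 48.0 in replicate 1, and from 13.4 to 336 RPKM with a median of 47.9 in replicate 2. The CSR-1 libraries ran from 0 to 36.4 RPKM with a median of 3.86, and from 0 to 30.2 RPKM with a median of 3.96. The input libraries ran from 5.29 to 140 RPKM with a median of 18.9, and from 5.19 to 164 RPKM with a median of 18.1. Each member's HRDE-1 libraries lay above both of its input libraries, and its CSR-1 libraries below both, which the thresholds make nearly certain. The median fold to input was 2.38 and 2.39 with HRDE-1 and 0.241 and 0.252 with CSR-1 in replicates 1 and 2.

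**Figure D1:**
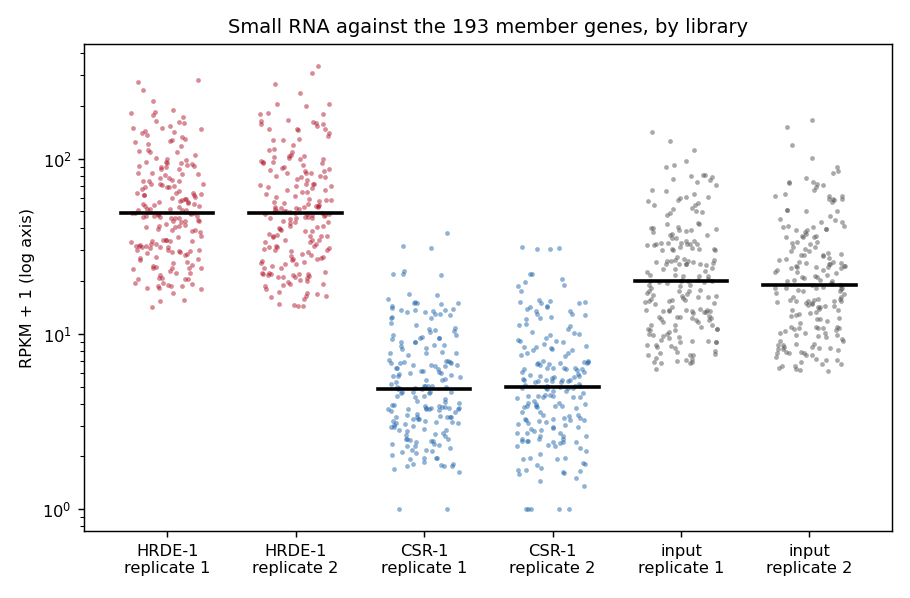
Small RNA against each of the 193 members in the 6 libraries, as RPKM + 1 on a log axis. Points are members and bars are medians over members. The HRDE-1 medians lie above the input medians and the CSR-1 medians below them in both replicates.

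Gain with HRDE-1 was small in size and narrow in range. On the log2 scale and averaged over the replicates, it ran from 1.01 to 1.89 with a median of 1.25. Only 8 of the 193 members were 3-fold or more above input with HRDE-1 in both replicates, and they were 2L52.1, C33D9.8, F19C7.3, R08B4.3, T02G6.5, Y40C5A.4, pcm-1 and syn-1. Loss with CSR-1 was deeper and wider, from −3.47 to −1.22 with a median of −2.08. The thresholds set the near end of both ranges. Over all 7730 rows with enough input, the highest mean HRDE-1 log2 ratio was 2.02 and the lowest mean CSR-1 log2 ratio was −4.25. The contrast is therefore not particular to the members. Among members, the difference between HRDE-1 and CSR-1 ran from 2.28 to 4.94 on the log2 scale, with a median of 3.35.

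Over all 7730 rows with enough input, the median log2 ratio to input was −0.33 with HRDE-1 and −0.09 with CSR-1. Gain with HRDE-1 in both replicates was met by 278 rows, or 3.6% of the 7730. Loss with CSR-1 was met by 2606 rows, or 33.7%. The 211 rows that met both were 2.73% of the rows and the 193 members 2.5%. Loss with HRDE-1 was met by 663 rows (8.58%) and gain with CSR-1 by 423 rows (5.47%). The opposite pattern, gain with CSR-1 and loss with HRDE-1, was met by 60 rows, and loss with both by 64 rows. The 2 comparisons share the input libraries, so a low input raises both ratios of a gene together. In the plot of all rows, the members lie at the right edge of a cloud of rows that were depleted with CSR-1 and slightly enriched with HRDE-1. They were not the rows most depleted with CSR-1. The lowest mean CSR-1 log2 ratio was −3.47 among members and −4.25 over all rows.

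**Figure D2:**
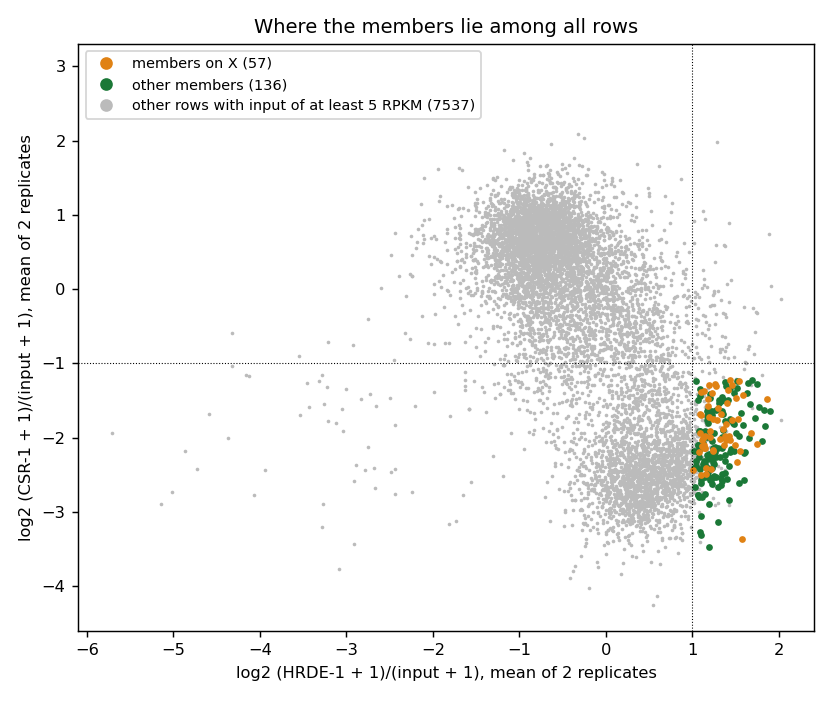
Mean log2 ratio to input with HRDE-1 (horizontal) and with CSR-1 (vertical) for the 7730 rows with both inputs at 5 RPKM or more. Orange points are the 57 members on X, green points are the 136 others and grey points are the remaining rows. The dotted lines mark 1 and −1, the log2 values of the thresholds, which each replicate had to pass by itself.

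The edge of the group is soft on the HRDE-1 side. The members nearest inside that threshold were C31H5.4, C46C2.2 and R07B7.9, whose lower HRDE-1 fold was 2.00 in each case. Nearest outside were W05H12.1, W04A8.5 and a second model of T04B8.5, whose lower fold was also 2.00 when rounded. For CSR-1 the nearest inside were T12B3.3 at 0.498, ZK354.3 at 0.497 and rac-2 at 0.486, and the nearest outside were F02H6.5 at 0.503, T22C1.4 at 0.506 and klp-8 at 0.519. For the input minimum they were C06B3.6, Y5H2B.3 and B0250.4 inside, at 5.19, 5.19 and 5.27 RPKM, and ins-13, gst-44 and F52H2.7 outside, at 5.0, 4.93 and 4.83 RPKM.

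Counting error bears on the same edge. When the reads of both replicates were summed, the 95% interval of the HRDE-1 to input read ratio reached below 2 for 106 of the 193 members and below 1 for 0 of them. The interval of the CSR-1 to input read ratio reached above 0.5 for 24 members and above 1 for 0. These exact intervals cover counting error only, since reads were not collapsed to molecules by identifiers. The same libraries chose the members, so the counts of 0 were largely set by the choice. Over the members the HRDE-1 pair had a chi-square of 1.30 for each degree of freedom. The HRDE-1 intervals given here and below may therefore be too narrow. The same reads chose the members, so their HRDE-1 read ratios and intervals may also lie too high. In CSR-1, 6 members had 0 reads in at least 1 library, and 3 had 1 to 3 reads over both. One of these, Y23H5B.8, had 3 CSR-1 reads in all against 17 input reads, a ratio of 0.107 with an interval of 0.0201 to 0.369 after scaling to the library totals.

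Each replicate on its own chose a wider set. With replicate 1 alone 349 rows met the thresholds, and with replicate 2 alone 340 rows. The same families were left out of both, and the 193 members are 55.3% of the first set and 56.8% of the second. Rows chosen in replicate 1 had a median HRDE-1 fold of 2.11 when read in replicate 2, against 2.30 in the replicate that chose them. Rows chosen in replicate 2 had a median of 2.12 in replicate 1, against 2.26 in the replicate that chose them. In the replicate that did not choose them, 343 of 349 and 337 of 340 rows were above input with HRDE-1, and all 349 and 340 were below input with CSR-1. Most rows that dropped out thus kept their direction and missed a threshold.

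The members with the most small RNA were led by C31H5.4, C29G2.1 and rgs-9. C31H5.4, a gene of 183 coding bases at 9042396 to 9042578 on chromosome I (WBcel235), had 281 and 336 RPKM with HRDE-1, 36.4 and 29.4 with CSR-1 and 140 and 164 in the input. C29G2.1, which has no match in the annotation used here, had 272 and 309 RPKM with HRDE-1, 29.7 and 30.1 with CSR-1 and 125 and 150 in the input. rgs-9, which encodes a regulator of G protein signalling (RGS) protein, had 247 and 265 RPKM with HRDE-1, 21.8 and 29.4 with CSR-1 and 111 and 118 in the input. In all 3 genes the libraries of each kind lay close together. The kinds did not overlap, which the thresholds make nearly certain for any member. Their HRDE-1 gain was near the threshold, and for rgs-9 the read ratio to input was 2.22 with a 95% interval of 2.01 to 2.46. The next by HRDE-1 level were C33A12.7, Y73B6BL.14, C07A9.9, C15C7.5, C17G1.8, C33D9.6 and T22B7.4, with HRDE-1 levels from 162 RPKM in T22B7.4 to 236 RPKM in C33A12.7. C33A12.7 is now named ethe-1, after the mitochondrial persulfide dioxygenase, and had 213 and 236 RPKM with HRDE-1, 13.4 and 13.3 with CSR-1 and 95.8 and 81.9 in the input. C17G1.8 is now tsp-21, a tetraspanin that acts in BMP signalling, and had 177 and 181 RPKM with HRDE-1, 14 and 18 with CSR-1 and 78.8 and 72.1 in the input. By input level the leading 10 were the same genes except that C31G12.1, with 162 and 157 RPKM in HRDE-1, 15.7 and 14.1 in CSR-1 and 79.2 and 70.7 in the input, took the place of T22B7.4.

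The widest gap between HRDE-1 and CSR-1 was seen in members with few CSR-1 reads. C11H1.7, on X at 14327409 to 14330195, had 32.9 and 26.6 RPKM with HRDE-1, 0 and 0 with CSR-1 and 11.5 and 7.47 in the input. It was the only member with 0 CSR-1 reads in both libraries, and with a floor of 3 reads over the group its CSR-1 level was at least 16.5-fold lower than the input. The exact 95% interval of its CSR-1 to input read ratio, which also counts the error of 30 input reads, reached up to 0.0792. F46E10.3 followed with 61.9 and 68.6 RPKM in HRDE-1, 1.98 and 1.32 in CSR-1 and 28.9 and 27.2 in the input. C52A10.3 had a similar gap at a higher level, with 117 and 108 RPKM in HRDE-1, 5.07 and 5.74 in CSR-1 and 36.1 and 39.9 in the input. The others among the leading 10 were F52B11.5, C18B10.6, F26E4.2, F19B6.3, ZK666.12, C38C3.10 and ZK652.8, with mean log2 gaps from 4.08 in ZK652.8 to 4.44 in F52B11.5. Their CSR-1 reads summed to between 4 in C38C3.10 and 17 in C18B10.6, so these gaps carry wide counting error. F52B11.5, for example, had 9 CSR-1 reads in all, against 63 input reads.

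Of the 193 members, 36 have a gene name in the table and the other 157 (81.3%) carry only a sequence name. The step by family and name removed only named genes, and before it the share was 74.4% of 211 rows. It was 71.2% of the rows gained with HRDE-1, 70.5% of those lost with CSR-1 and 62.1% of all 7730 rows. The named members are taken in turn below by what their products do. Each was chosen by the same ratios, so agreement among them in direction is set by the choice.

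**Figure D3:**
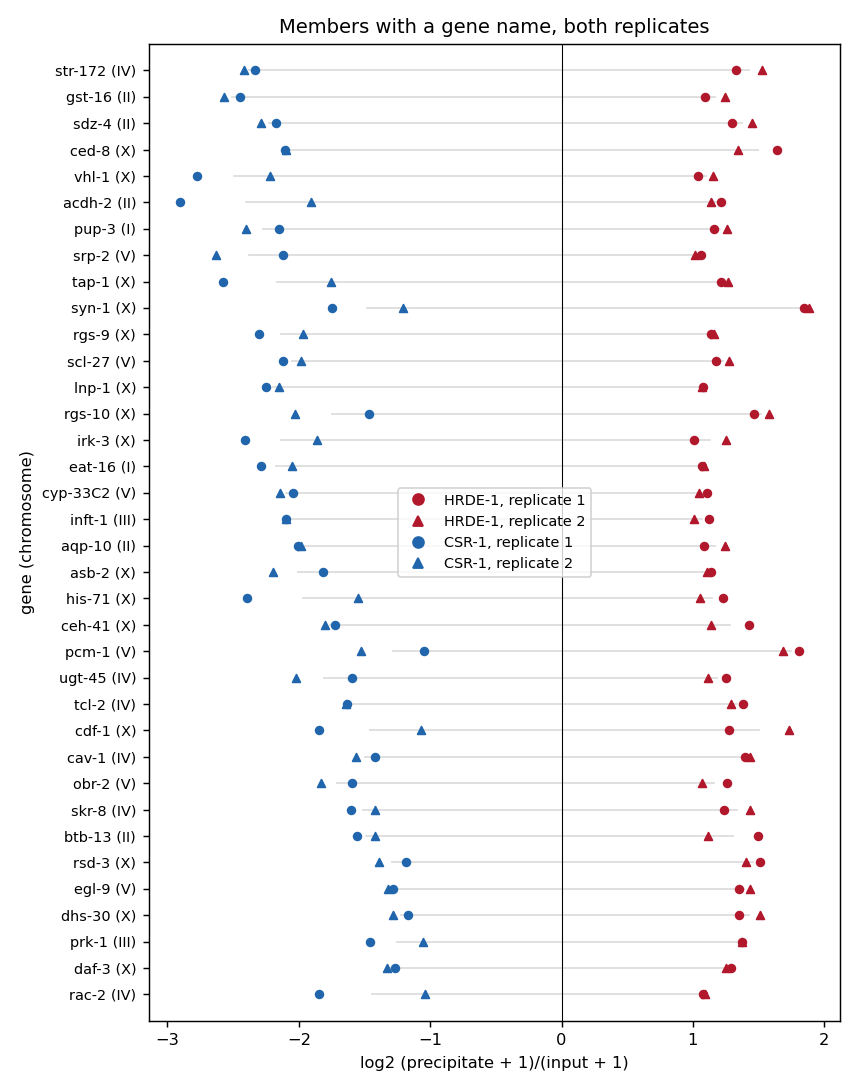
Log2 ratio to input of the 36 members with a gene name in the table, with HRDE-1 in red and CSR-1 in blue, circles for replicate 1 and triangles for replicate 2. Genes are ordered by the gap between the 2 means and their chromosome is given in brackets. HRDE-1 points lie between 1 and 2 throughout, while CSR-1 points spread from −2.90 in acdh-2 to −1.04 in rac-2.

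Among signalling genes, 3 of the 5 RGS rows with enough input were members, against 2.5% of all rows. They were rgs-9, eat-16 and rgs-10. RGS proteins shorten G protein signals, and EAT-16 acts on the Gq protein EGL-30 in neurons and muscle. eat-16 had 88.3 and 86.4 RPKM with HRDE-1, 7.70 and 8.92 with CSR-1 and 41.6 and 40.1 in the input. rgs-10 had much less, with 17.9 and 21.2 RPKM in HRDE-1, 1.48 and 0.822 in CSR-1 and 5.86 and 6.43 in the input. eat-16 overlaps another row of the table. The other 2 RGS rows, egl-10 and rgs-5, were lost with CSR-1 but had HRDE-1 log2 ratios of 0.50 in egl-10 and −0.83 in rgs-5. This class was drawn up after values had been seen.

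In the transforming growth factor pathway, daf-3, the co-SMAD that dauer TGF-beta signalling holds in check, had 47.8 and 47.5 RPKM with HRDE-1, 7.27 and 7.11 with CSR-1 and 18.9 and 19.3 in the input. tap-1 is named for its likeness to a protein that binds the kinase TAK1, and it had 42.7 and 42.8 RPKM with HRDE-1, 2.14 and 4.39 with CSR-1 and 17.8 and 17.2 in the input. In both genes the HRDE-1 libraries were almost equal, and the CSR-1 libraries of tap-1 held 29 reads in all. prk-1, a kinase related to Pim kinases, had 57.5 and 53.1 RPKM with HRDE-1, 7.20 and 9.10 with CSR-1 and 21.6 and 19.9 in the input. tcl-2, a gene of the Wnt-controlled asymmetric division of the T cell, had 38.1 and 31.7 RPKM with HRDE-1, 3.82 and 3.28 with CSR-1 and 14 and 12.4 in the input. rac-2, a Rac GTPase close in sequence to ced-10, stood at the CSR-1 threshold, with 19.5 and 18.3 RPKM in HRDE-1, 1.70 and 3.41 in CSR-1 and 8.73 and 8.08 in the input.

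Of 10 rows of the oxygen-sensing pathway of HIF-1, a class drawn up after values had been seen, 6 had enough input and 3 were members (2.5% of all rows). EGL-9 is the prolyl hydroxylase that marks HIF-1, and VHL-1 is the ubiquitin ligase subunit that then leads to its degradation. vhl-1, on X at 11307356 to 11308518, had 61.1 and 55.5 RPKM with HRDE-1, 3.42 and 4.44 with CSR-1 and 29.2 and 24.3 in the input. egl-9 has 3 models with enough input, and the lowest in level was the member, with 18.3 and 18.2 RPKM in HRDE-1, 2.11 and 1.84 in CSR-1 and 6.56 and 6.10 in the input. The other 2 egl-9 models had 1.74 to 1.83 times the input with HRDE-1 and so fell short of the threshold. They were at 0.233 to 0.281 times the input with CSR-1. cysl-2 (K10H10.2), a cysteine synthase-like gene of the same pathway, had 19.6 and 21.0 RPKM with HRDE-1, 2.11 and 1.63 with CSR-1 and 6.84 and 8.87 in the input. hif-1 itself had too little input to enter, and lay the other way, with 2.17 and 1.74 RPKM in HRDE-1, 5.82 and 5.68 in CSR-1 and 2.35 and 1.43 in the input. The pathway genes cysl-1, swan-1 and rhy-1 also had too little input, and their mean log2 ratios were −0.18, 0.29 and 0.15 with HRDE-1 and −0.95, 1.62 and 0.37 with CSR-1. aha-1, which encodes the HIF-1 partner, had 18.7 and 14 RPKM with HRDE-1, 3.12 and 3.54 with CSR-1 and 5.48 and 7.40 in the input. It missed the CSR-1 threshold in both replicates and the HRDE-1 threshold in replicate 2.

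Homeobox genes, whose products bind DNA in cell fate control, gave 5 members among 22 homeobox rows with enough input (2.5% of all rows). Of those 22 rows 6 were gained with HRDE-1 (3.6% of all rows) and 12 lost with CSR-1 (33.7% of all rows). ceh-41, of the ONECUT class, had 52.5 and 45.6 RPKM with HRDE-1, 5.02 and 5.08 with CSR-1 and 18.9 and 20.2 in the input. The other members bear sequence names in the table and are now called ceh-58 (C07E3.6), ceh-86 (F42G2.6), ceh-88 (C49C3.5) and ceh-99 (T21B4.17). Their HRDE-1 levels ran from 24.2 RPKM in ceh-86 to 81.8 RPKM in ceh-58. ceh-58 had 81.8 and 81.7 RPKM with HRDE-1, 8.02 and 6.02 with CSR-1 and 29.7 and 38.1 in the input. The remaining homeobox row gained with HRDE-1 was ceh-49, with a mean log2 ratio of 1.37, and its CSR-1 log2 ratio of −0.65 kept it out. Another nuclear protein among the members was his-71, a histone H3.3, with 40.3 and 39.3 RPKM in HRDE-1, 2.35 and 5.61 in CSR-1 and 16.6 and 18.3 in the input.

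RNA-related genes were few. rsd-3, which encodes an ENTH-domain protein needed for the spread of RNA interference between tissues, had 33.3 and 33.4 RPKM with HRDE-1, 4.30 and 3.95 with CSR-1 and 11 and 12 in the input. Its HRDE-1 read ratio to input was 2.91 with a 95% interval of 2.35 to 3.64. pup-3, a poly(U) polymerase that adds uridines to RNA ends, had 93.5 and 94.6 RPKM with HRDE-1, 8.53 and 6.57 with CSR-1 and 41.3 and 38.9 in the input.

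Membrane and trafficking genes made up a further group. lnp-1, the lunapark protein of the endoplasmic reticulum network, had 132 and 144 RPKM with HRDE-1, 12.3 and 14.6 with CSR-1 and 62.2 and 68.1 in the input. aqp-10, an aquaporin, had 126 and 139 RPKM with HRDE-1, 13.9 and 14 with CSR-1 and 58.7 and 58.1 in the input. irk-3, an inwardly rectifying potassium channel, had 108 and 111.9 RPKM with HRDE-1, 9.21 and 12 with CSR-1 and 53.3 and 46.3 in the input. These were the named members with the most small RNA after rgs-9, apart from gst-16. cav-1, a caveolin of membrane invaginations, had 68.5 and 70.7 RPKM with HRDE-1, 8.87 and 8.0 with CSR-1 and 25.4 and 25.6 in the input. cdf-1, a cation diffusion facilitator that moves zinc, had 61.1 and 60.3 RPKM with HRDE-1, 6.13 and 7.77 with CSR-1 and 24.7 and 17.4 in the input. syn-1, a syntaxin now called syx-3, had the largest mean HRDE-1 ratio of the 36 named members, with 27.6 and 22.7 RPKM in HRDE-1, 1.37 and 1.78 in CSR-1 and 6.96 and 5.41 in the input. Its HRDE-1 log2 ratio was 1.86, and the read ratio of 4.08 had a 95% interval of 2.92 to 5.83. Because syn-1 was picked as the largest of the 36, both ratios may be too high. obr-2, an oxysterol-binding protein relative, and str-172, a predicted chemoreceptor, had HRDE-1 levels of 21.6 to 26.3 RPKM.

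Metabolic and detoxification genes included gst-16, a glutathione S-transferase, with 111 and 118 RPKM in HRDE-1, 8.63 and 7.46 in CSR-1 and 51.4 and 49.3 in the input. Together with ugt-45, a glucuronosyltransferase, and cyp-33C2, a cytochrome P450, it was 1 of 3 members among 21 detoxification rows with enough input, against 2.5% of all rows. ugt-45 had 44.6 and 49.4 RPKM with HRDE-1, 5.31 and 4.74 with CSR-1 and 18.1 and 22.3 in the input. Of those 21 rows 16 were lost with CSR-1, against 33.7% of all rows. asb-2, a subunit of the mitochondrial ATP synthase, had 59.1 and 61.6 RPKM with HRDE-1, 6.76 and 5.36 with CSR-1 and 26.3 and 28.1 in the input. pcm-1, a protein repair methyltransferase, had 46.5 and 51.4 RPKM with HRDE-1, 5.57 and 4.65 with CSR-1 and 12.5 and 15.2 in the input, a mean HRDE-1 log2 ratio of 1.75. The dehydrogenase genes acdh-2 and dhs-30 were lower in level, between 25.7 and 30.7 RPKM with HRDE-1.

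The remaining named members have varied roles. ced-8, an Xk-related membrane protein that acts in cell death, had 50.01 and 42.2 RPKM with HRDE-1, 2.80 and 2.97 with CSR-1 and 15.4 and 16 in the input. sdz-4, named as a gene that depends on the transcription factor SKN-1 in the early embryo, had 74.3 and 68.2 RPKM with HRDE-1, 5.79 and 4.19 with CSR-1 and 29.7 and 24.3 in the input. scl-27, srp-2, a serpin, inft-1, a formin now called exc-6, skr-8, a relative of the ubiquitin ligase subunit Skp1, and btb-13 had HRDE-1 levels from 17 RPKM in skr-8 to 51.1 RPKM in scl-27. btb-13 is a pseudogene in the annotation used here. Members of large families, such as cyp-33C2, str-172, skr-8 and sdz-4, may share reads with close copies. How the authors counted reads that map to several places is not given in the sources used here, so those levels are uncertain.

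Lists of genes drawn up around the pathways and cell types of these animals were counted in the same rows. Over all rows 3.6% were gained and 8.58% lost with HRDE-1, 5.47% were gained and 33.7% lost with CSR-1, and 2.5% were members. The HRDE-1 nuclear RNAi list had 11 rows with enough input, of which 0 were gained with HRDE-1, 0 were lost with CSR-1 and 0 were members. The CSR-1 pathway list had 6 such rows, also with 0 in each class. Among 19 rows of the WAGO Argonaute and Mutator list, 0 were gained with HRDE-1, 2 were lost with CSR-1 and 0 were members. One of them, rde-11, came close, with 494 and 572 RPKM in HRDE-1, 59.3 and 76.2 in CSR-1 and 280 and 285 in the input. The piRNA list had 13 rows, with 3 gained and 1 lost with CSR-1 and 0 members. With 2.5% of all rows being members and 3.6% gained with HRDE-1, counts of 0 members or 0 gained rows in lists of this size are near the background. Loss with CSR-1 was rarer in each of these lists than the 33.7% over all rows, and this was not tested. rsd-3 and pup-3 are on none of those lists.

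Germ-cell lists held 0 members, which is near the 2.5% of all rows at their size. Of 25 oogenic and maternal rows, 15 were lost with HRDE-1, 7 gained with CSR-1 and 0 were members, and their median log2 ratios were −1.22 with HRDE-1 and 0.76 with CSR-1. Both counts can be read against 8.58% of all rows lost with HRDE-1 and 5.47% gained with CSR-1. Of 14 spermatogenesis rows, 11 were lost with CSR-1 and 5 lost with HRDE-1, with 0 members. Loss with CSR-1, met by 33.7% of all rows, was also met by most rows of 4 neuronal and receptor lists. They were 6 of 7 neuronal rows, with medians of 0.62 for HRDE-1 and −2.28 for CSR-1, 31 of 33 chemoreceptor rows (0.56 and −2.38), 13 of 14 neuropeptide and insulin rows (0.29 and −2.80) and 20 of 23 ion channel and neurotransmitter receptor rows (0.58 and −2.40). Their members were str-172 among the chemoreceptors and irk-3 among the channels. The median over all rows was −0.33 for HRDE-1 and −0.09 for CSR-1. Muscle had 2 of 6 rows and hypodermis 3 of 4 rows lost with CSR-1, with 0 members, and 0 of 23 intestine rows had enough input.

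In the other family lists the share of members was near the 2.5% of all rows or too small a count to place. Of 13 protease and protease inhibitor rows, 8 were lost with CSR-1, and of 7 hedgehog and patched related rows, 4 were, with 0 members in either list. Of 17 ABC transporter rows, 3 were lost with CSR-1 and 0 were members. Of 48 zinc finger and other transcription factor rows, 21 were lost with CSR-1, 2 gained with HRDE-1 and 1, ztf-25 (Y6G8.3), was a member. ztf-25 had 86.5 and 94.9 RPKM with HRDE-1, 13.9 and 9.64 with CSR-1 and 37.9 and 31.7 in the input.

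The members' place on the chromosomes was not used to choose them. Of the 189 members with a match in the Ensembl 115 annotation of WBcel235, 57 (30.2%) were on X, 41 on II, 33 on V, 31 on IV, 16 on I and 11 on III. Of all 7547 matched rows with enough input, 464 (6.15%) were on X. Among the rows gained with HRDE-1 the share on X was 28.2% (77 of 273), and among those lost with CSR-1 but not gained with HRDE-1 it was 11.9% (274 of 2308). Among rows with the opposite pattern it was 1.67% (1 of 60). No test of these shares was made.

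Read the other way, 12.3% of the 464 rows on X were members, against 1.86% of the 7083 autosomal rows. Members were 2.88% of rows on II, 2.76% on V and 2.43% on IV, but 0.998% on I and 0.694% on III. The whole X chromosome lay in the members' direction. Its median log2 ratio was 0.68 and 0.64 with HRDE-1 and −2.01 and −1.96 with CSR-1 in the 2 replicates. On the autosomes together the medians were −0.32 and −0.43 with HRDE-1 and −0.0075 and 0.00042 with CSR-1. On X 71.8% of rows were lost with CSR-1 and 16.6% gained with HRDE-1, against 30.8% and 2.77% on the autosomes.

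**Figure D4:**
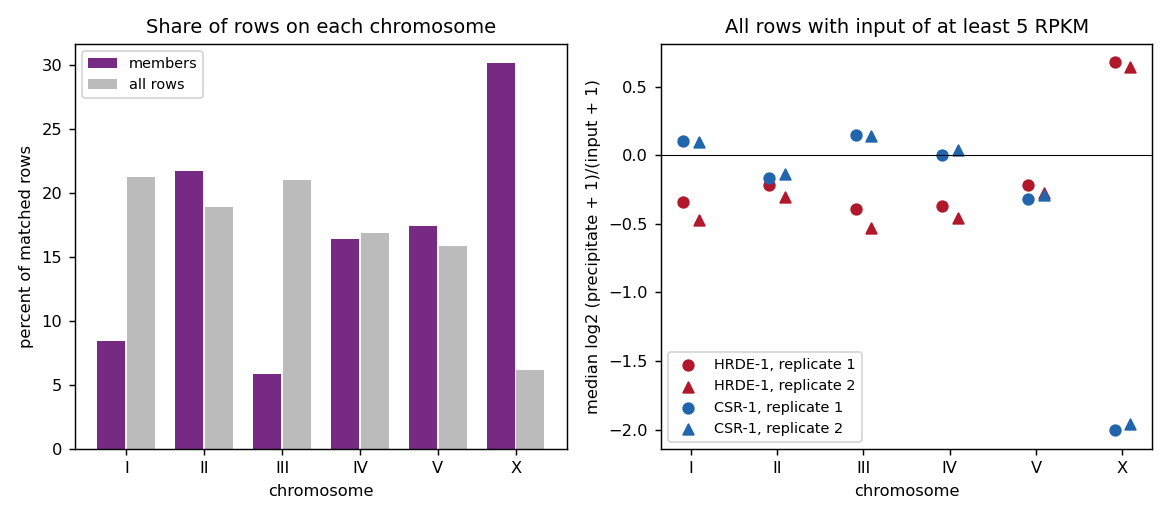
Left, the percent of members (purple) and of all rows with enough input (grey) on each chromosome, among rows matched to the annotation. Right, the median log2 ratio to input over all rows of a chromosome, with HRDE-1 in red and CSR-1 in blue, circles for replicate 1 and triangles for replicate 2. X holds 30.2% of members against 6.15% of rows, and its medians stand apart from those of the 5 autosomes in both replicates.

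Members on X and on autosomes were set side by side, with no test. The 57 on X had median mean log2 ratios of 1.26 with HRDE-1 and −1.93 with CSR-1. The 132 on autosomes had 1.25 with HRDE-1 and −2.15 with CSR-1. HRDE-1 medians were 52.5 and 52.2 RPKM on X and 45 and 45.1 RPKM on autosomes. CSR-1 medians were 5.59 and 5.36 RPKM on X and 3.18 and 3.31 RPKM on autosomes, higher on X in both replicates. Input medians were 20.5 and 20.2 RPKM for the members on X and 16.9 and 15.7 RPKM for those on autosomes. Of the 10 members highest with HRDE-1, 4 were on X, namely rgs-9, C15C7.5, C17G1.8 and T22B7.4.

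Members were somewhat shorter than the rows they came from. The median coding length was 916.5 bases over the 182 members with one, against 1119 bases over 7326 rows. Coding length here is that of the listed transcript, or the longest of the gene where the transcript is not in the annotation. Median exon number was 5 in members and 6 in all rows, and the median gene span was 1983 and 2503 bases. Rows lost with CSR-1 but not gained with HRDE-1 had nearly the same coding length as the members, at 912 bases. Pseudogenes were 7 of the 189 matched members (3.70%), against 199 of the 7547 matched rows (2.64%) and 6.02% of rows lost with CSR-1 but not gained with HRDE-1. The 7 were T04B8.2, btb-13, K02E7.6, C33D9.5, F54D11.3, K09D9.12 and B0250.4. F54D11.3 had the most small RNA of these, with 141 and 152 RPKM in HRDE-1, 8.43 and 10.1 in CSR-1 and 53.7 and 57.8 in the input.

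Members were more frequent among rows with little input, which is also where ratios are noisiest. When the 7730 rows were put in order of mean input and cut into 4 equal parts, the lowest part held 74 members (3.83% of its rows), the next ones 49 (2.54%) and 40 (2.07%), and the highest 30 (1.55%). The median mean input was 19.2 RPKM in members and 25.3 RPKM in all rows. Whether counting error brought rows of low input over the thresholds was not tested.

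Some members lay close to one another. Of the 189 members that could be placed, 132 had another row with enough input within 10 kb (10000 bases). For 29 members a row that near was itself a member, and they formed 14 groups. Members were 2.5% of all rows with enough input, and whether they lay together more often than their number gives was not tested. The largest group was C33D9.6, C33D9.5 and C33D9.8, between 8773989 and 8786752 on chromosome IV. C33D9.6 had 171 and 178 RPKM with HRDE-1, 13 and 13.3 with CSR-1 and 77.9 and 70.0 in the input. The pseudogene C33D9.5 had 43.3 and 38.8 RPKM with HRDE-1, 2.17 and 1.72 with CSR-1 and 20.3 and 17.9 in the input. C33D9.8 had 50.8 and 50.5 RPKM with HRDE-1, 3.97 and 4.05 with CSR-1 and 15.6 and 12.8 in the input. The other 13 groups were pairs, among them rgs-9 with ZC53.1, vhl-1 with F08G12.3 and syn-1 with C26B9.1, all on X. Y58A7A.3 and Y58A7A.4, a pair on V, had 45.8 and 48.9 RPKM and 29.0 and 30.8 RPKM with HRDE-1.

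Genes next to the members were compared with those farther away, with no test. Of 233 rows of other genes within 10 kb of a member that were not members themselves, 5 (2.15%) were gained with HRDE-1 and 94 (40.3%) were lost with CSR-1. Among rows neither members nor near one, 1.11% were gained with HRDE-1 and 31.3% lost with CSR-1. Among all rows the shares were 3.6% and 33.7%, but these include the members, which the rule makes gained and lost. Neighbours and distant rows leave the members out, so their shares can be set against each other but not against all rows. The neighbours' median log2 ratios were 0.04 with HRDE-1 and −0.65 with CSR-1. They were −0.37 and −0.02 over 7121 rows that were neither members nor near one. X held 14.2% of the neighbours and 5.25% of the distant rows. On autosomes alone the neighbours had medians of −0.23 with HRDE-1 and −0.30 with CSR-1 (200 rows), against −0.41 and 0.04 for distant rows (6747 rows). On X they had 0.68 with HRDE-1 and −1.56 with CSR-1 (33 rows), against 0.57 and −2.06 for distant rows (374 rows).

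Some members cannot be told from a partner. For 11 members the gene overlaps another row of the table with enough input, in 9 cases on the other strand, and the strand that the authors counted is not given in the sources used here. These 11 included eat-16, gpx-1 (F26E4.12), cysl-2 (K10H10.2) and ceh-88 (C49C3.5). For 4 members a further model of the same gene is listed in 5 rows that were not members. They were egl-9, T04B8.5, C06G8.3 and acdh-2. The second C06G8.3 model had HRDE-1 folds of 1.66 and 1.61 and CSR-1 folds of 0.211 and 0.216. The second T04B8.5 model missed by its HRDE-1 fold in replicate 2.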

How the data were processed

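Small RNA of young adults was sequenced after immunoprecipitation of HRDE-1 or CSR-1 and from the input. Per the labels' protocols, RNA was treated with a phosphatase, then with T4 polynucleotide kinase, and ligated to linkers. The authors deposited RPKM values per gene model. Bowtie 1.2.3 is listed in the submitters' processing notes. Not given in the sources used here are the build, the annotation, the strand and the handling of reads with several places. A second deposited table, whose 45 columns of RPKM values the labels do not tie to samples, was not used.

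Each precipitate was divided by the input of its own replicate after adding 1 RPKM. Read numbers, used for intervals, floors and the chi-square test only, were deduced from the steps between RPKM values. For each row the smallest length was taken that made its values whole within a tolerance of 1e-06. One was found for all 80624 values above 0 (100%), but a multiple of it would also fit. For this reason 454 model lengths under 0.6 of the coding length were raised to a multiple. In rows without a coding length this could not be done, so their read numbers may be too low. The chi-square test used rows with at least 10 reads in the pair. Genes were placed by the Ensembl 115 annotation of WBcel235, matched by WormBase sequence name, and gene lists were matched by symbol or current name. Python 3.11.15, pandas 2.3.3, numpy 2.4.6, scipy 1.17.1 and matplotlib 3.10.9 were used, and the scripts were checked on simulated data. The simulated members had a larger gain and loss than the median real member, with counting noise only. That check therefore does not cover genes near a threshold. No test across genes was made, because the members were chosen from all 6 libraries. The members and lists were chosen with earlier results of these data known. Genes were named when they were among the 10 members highest in HRDE-1, in input or in the gap between HRDE-1 and CSR-1, had a gene name, lay nearest a threshold, or were neighbours or other models of members. C. elegans proteins and promoters were not compared.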

Additional observations from a re-analysis of the deposited data

How the results depend on the processing

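The number of members depended on how the thresholds and the scale were set. Against 193, it was 80 with 5 RPKM added in place of 1, 795 with 1.5-fold thresholds, 2 with 3-fold thresholds (F19C7.3 and R08B4.3), and 307 when the means of both replicates were used. With 1 replicate left out it was 340 to 349. Setting the library medians equal, which shifts the median log2 HRDE-1 ratio of all rows by over 0.1, to 0.02 from −0.33 as deposited, gave 601, of which 185 were members. It was 140 to 240 with 0.1 RPKM added, with input minimums of 1 or 10 RPKM or none, and with the mean of both inputs, an alternative chosen after seeing the data, which gave 238 with 176 of the members.

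The members' median log2 HRDE-1 ratio of 1.25 was 1.11 with 5 RPKM added and 1.61 with medians set equal. Their CSR-1 ratio of −2.08 was −2.31 with 0.1 RPKM added and −1.36 with 5 RPKM added. Without a replicate the medians of the same members were 1.25 for HRDE-1 and −2.05 to −1.99 for CSR-1. The members had to pass in each replicate, so this closeness was largely set by the choice. For the share on X and the coding length, the rows were chosen anew in each setting. The share on X of 30.2% was 23.6% with 1.5-fold thresholds. It was 50% with 3-fold thresholds, a set of only 2 rows, F19C7.3 on IV and R08B4.3 on X. It was 25.1% to 33.6% under the other settings, of which the equal medians and mean inputs were added after seeing the data. Median coding length was 781.5 bases in the set of 2 rows and 891 to 937.5 bases otherwise, below that of all rows in each setting. The cause of these shifts was not tested. No paired analysis was possible because the members come from a rule with no test, which already sets each precipitate against the input of its own replicate. Depth limits the CSR-1 values most, with a median of 24 and 13 reads per member in the 2 libraries.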

Other observations

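Several members that carry a sequence name in the table have since been given names that fall into further groups, which were noticed after the values had been seen and were not tested. Glutathione peroxidases, enzymes that remove peroxides, gave 2 members among 5 rows with enough input, against 2.5% of all rows, and 4 of the 5 were lost with CSR-1, against 33.7%. gpx-6 (T09A12.2) had 129 and 133 RPKM with HRDE-1, 8.39 and 7.25 with CSR-1 and 57.2 and 60.4 in the input. gpx-1 (F26E4.12), which overlaps another row, had 55.9 and 42.6 RPKM with HRDE-1, 1.63 and 4.08 with CSR-1 and 24.6 and 17.4 in the input. msra-1 (F43E2.5), which encodes a methionine sulfoxide reductase, had 23.4 and 24.9 RPKM with HRDE-1, 2.65 and 0.443 with CSR-1 and 10.2 and 8.81 in the input. Sulfur metabolism genes gave 3 members among 6 rows (2.5% of all rows), cysl-2, ethe-1 and mpst-3 (H12D21.7). mpst-3, a mercaptopyruvate sulfurtransferase gene, had 39.5 and 33.2 RPKM with HRDE-1, 1.53 and 3.40 with CSR-1 and 12.1 and 15.3 in the input.

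The step that left out F-box genes went by the names in the table. By current names 2 members are F-box genes as well. fbxc-40 (C32B5.1) had 108.4 and 104.4 RPKM with HRDE-1, 9.54 and 7.36 with CSR-1 and 49.2 and 49.7 in the input. fbxc-52 (C46E10.4) had 90.1 and 84.2 RPKM with HRDE-1, 7.51 and 6.50 with CSR-1 and 34.4 and 38 in the input. Of 143 F-box rows with enough input under current names, 125 were lost with CSR-1 (33.7% of all rows) and 17 gained with HRDE-1 (3.6% of all rows).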
